A study of Drosophila melanogaster with 14 samples.

Results

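The regions described here are stretches of open chromatin in Drosophila melanogaster wing imaginal discs that were listed as open in damaged but not in undamaged discs at more than 1 time after damage. They were chosen by the measured nucleosome-free peaks themselves: a time counted as a gain where the 2 regenerating libraries each had a peak in the region and the 2 controls had none, and a region was kept with a gain at 2 or 3 of the times 0, 15 and 25 h. Of 33226 merged regions, 369 met the rule (1.11%), 56 of them at all 3 times and 313 at 2. The study followed discs after cell death was induced, with discs kept alike but undamaged as controls and a separate group of undamaged larval discs (L3), in 7 groups of 2 libraries. The labels treat regenerating and control discs as separate genotypes but name no allele, driver or inducing agent, and all groups are wing discs of larvae in the third instar. Damage and genotype therefore cannot be told apart in any comparison below, and the genotype of the L3 discs is not given. Replicates are known by number only, so the p-values speak only of how these libraries vary, and that variation may be technical.

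Wing imaginal discs are epithelial sacs in the larva that form the adult wing, and they can regrow after part of the tissue dies. In the assay for transposase-accessible chromatin (ATAC-seq) an enzyme cuts and tags DNA that is not wrapped tightly. Short fragments come from nucleosome-free DNA, as at active promoters and enhancers, and longer ones span a nucleosome beside such DNA. The promoters of 9 of 10 genes that mark the wing epithelium, among them nub, vg, sd and ap, were open in all 14 libraries. Of 4 hemocyte genes 3, and of 4 fat body genes all 4, had no promoter peak in any library, while 2 of 4 myoblast, 2 of 3 tracheal and 1 of 2 neuronal genes were open in all 14. Of the markers open in some libraries only, twi had a promoter peak in 13, btl and srp in 12 and Him in 8. An open promoter does not show expression.

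The sequences that follow reach 50 bases to either side of the strongest summit of 7 regions on unique or nearly unique sequence (at most 0.195% of the 32-base words of a region found elsewhere in the genome), outside untranslated exons, from the dm6 build (Release 6), plus strand. The first 5 and the last were gained at all 3 times, and the sixth lies near a cytokine gene. Capitals mark matches, on either strand, to 20 short motifs, of which the GAGA factor motif, a CA repeat and the TATA box were found. Their letters are given with the motif counts.
Near HGTX, chr3L:14600739-14600839: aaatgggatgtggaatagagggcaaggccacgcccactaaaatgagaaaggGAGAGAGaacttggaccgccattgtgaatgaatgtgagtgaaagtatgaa
Near tHMG2, chr3R:22494908-22495008: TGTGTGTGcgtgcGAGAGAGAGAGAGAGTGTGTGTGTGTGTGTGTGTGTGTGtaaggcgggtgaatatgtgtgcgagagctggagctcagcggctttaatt
Intron of Ptp99A, chr3R:29441361-29441461: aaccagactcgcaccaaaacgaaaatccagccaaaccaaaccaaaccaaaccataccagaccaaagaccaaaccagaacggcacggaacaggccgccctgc
Near Npc1b, chrX:20946921-20947021: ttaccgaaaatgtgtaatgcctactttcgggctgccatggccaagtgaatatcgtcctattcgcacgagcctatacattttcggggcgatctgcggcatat
Near eya, chr2L:6527115-6527215: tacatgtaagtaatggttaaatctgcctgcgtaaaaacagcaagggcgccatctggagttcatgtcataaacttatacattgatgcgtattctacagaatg
Near upd2, chrX:18239417-18239517: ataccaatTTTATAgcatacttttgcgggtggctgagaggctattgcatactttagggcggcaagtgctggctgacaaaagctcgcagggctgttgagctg
Intron of rdo, chr2L:18046235-18046335: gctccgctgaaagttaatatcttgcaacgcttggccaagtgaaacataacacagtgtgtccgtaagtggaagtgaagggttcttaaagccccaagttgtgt
Within these bases, 4 of the 7 held none of the 20 motifs, and the region near tHMG2 was largely a run of GA and GT repeats.

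A further pair of sequences is shown because several regions in copies of the retrotransposon springer carry the same bases. The region near lncRNA:CR45337 and the one in an intron of rg, both gained at all 3 times, hold this stretch of 116 bases, given for rg on the minus strand. Capitals mark the 1 base that differs, T63C, counted from 1 at the 5′ end of the copy on 2L.
Near lncRNA:CR45337, chr2L:3258040-3258155: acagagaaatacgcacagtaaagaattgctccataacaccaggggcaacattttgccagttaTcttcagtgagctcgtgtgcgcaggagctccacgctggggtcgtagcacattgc
Intron of rg, chrX:5097231-5097346: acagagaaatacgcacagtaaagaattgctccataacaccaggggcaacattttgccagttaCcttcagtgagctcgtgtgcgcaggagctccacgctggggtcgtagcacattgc
The region in an intron of l(1)G0289 on X holds all 116 bases without a change, and the same stretch begins just beyond the end of a region near eIF4B on 3L. A fragment that falls within an identical stretch cannot be assigned to 1 copy by its sequence, so these regions may share a part of their fragments.

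Open chromatin in these regions was moderate in strength where it was found. Read depth is not recorded in the peak lists, so the number of fragments piled up at each summit was solved from the fold enrichment and p-value of each peak. The median summit pile-up of the 369 regions lay between 20 and 24 fragments in the 6 regenerating libraries, against 33 to 46 for all nucleosome-free peaks of these libraries. At the times that chose a region, its lowest pile-up ranged from 10 to 53 fragments (median 17) and its highest from 15 to 92 (median 28). At its genome background a library listed no peak under 7 to 12 fragments, and where the local background is higher this level is higher too. A region with no peak is thus one below the level of its place and not one without fragments.

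Among regions that 2 or more of a time's 4 libraries listed, gains numbered 1200 (5.41%) for 0 h, 732 (3.19%) for 15 h and 1172 (5.27%) for 25 h. The repeatedly gained regions made up 293, 214 and 287 of these, or 24.4, 29.2 and 24.5%. The largest class, 155 regions, was gained at 0 and 25 h, while 82 had gains at 0 and 15 h, and 76 had them at 15 and 25 h. At 0 h, 15 and 18 of them had a peak in the control replicates and 315 and 342 in the regenerating replicates. At 15 h the numbers were 77 and 78 against 289 and 326, and at 25 h 27 and 31 against 336 and 330. Controls of 15 h thus held more of these regions than controls of the other times, and L3 libraries more still, with 149 in replicate 1 and 89 in replicate 2. All of these levels follow from the rule, or in part from it, and are a description.

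**Figure D1:**
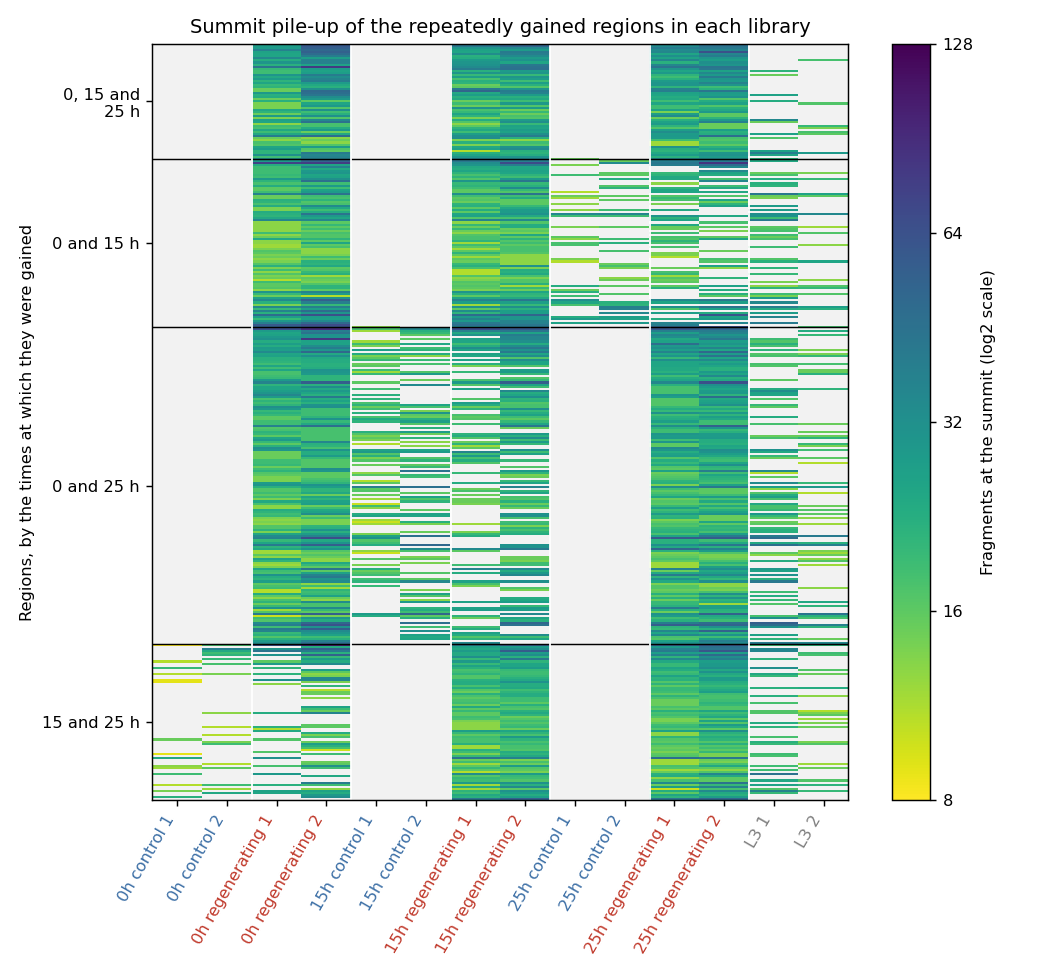
Each row is 1 of the 369 regions, grouped by the times at which it was gained and ordered by rank within a group, and each column is 1 of the 14 libraries; colour gives the fragments at the summit on a log2 scale, and pale cells have no peak listed. Control columns are empty at the times that chose a group by construction, and the L3 columns hold 149 and 89 regions.

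Regions gained at exactly 2 times were partly open in regenerating discs at the other time as well. Of the 155 regions gained at 0 and 25 h, 37 had both regenerating and 1 control library at 15 h, 21 had all 4, and 27 had 1 regenerating library and no control. The largest state there was 1 regenerating library with 1 or both controls, 44 regions, while 13 had a control but no regenerating peak and 13 had no peak. Of the 82 gained at 0 and 15 h, these 6 states at 25 h held 17, 9, 27, 13, 5 and 11 regions in the same order. Of the 76 gained at 15 and 25 h, they held 11, 3, 28, 15, 0 and 19 at 0 h. The full reverse, both controls and no regenerating library, held 3, 2 and 0 regions. Peaks were present in all 6 regenerating libraries for 154 regions, in 5 for 154 and in 4 for 61.

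The rule has a sharp edge. Of 2310 regions gained at 1 time, 1312 were short of a second time by 1 library. Just inside, the weakest peak of a region at its gained times had a −log10 q of 2.11 in the lowest case and 5.42 at the median, with 40.7 as the highest. Leaving out regenerating replicate 1 of 0 h or replicate 2 of 25 h, so that 1 library decides its group, raised the number of regions to 575. With every list cut to the length of the shortest, 202 regions were left. Regenerating libraries had genome backgrounds of 2.695 to 3.67 fragments and controls of 1.618 to 3.45. Scaled to the depth of each control, 307 regions (48 at all 3 times) still passed the weakest peak of the control lists, and 47 (10 at all 3 times) did with the lower 95% Poisson limit of the scaled summit, a version added after the data were seen. Those 10 included the regions near HGTX and tHMG2, in an intron of rdo, at the start of speck and over the 3′ UTR of Ubqn, and 5 with repeated sequence.

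Peaks at the time that did not choose a region were the measure open to a test. For each time the regions gained at both other times were taken, 132 for 0 h, 211 for 15 h and 138 for 25 h, and only the 4 libraries of the left-out time were read. At 0 h 59.1 and 79.5% of them had a nucleosome-free peak in the regenerating libraries and 11.4 and 13.6% in the controls. At 15 h the shares were 62.1 and 79.6% against 36.5 and 37.0%, and at 25 h 76.1 and 71.7% against 19.6 and 22.5%. The groups did not overlap at any time, and the gap was smallest at 15 h. In all other regions they did not overlap at 0 h either, with 63.8 and 70.1% in regenerating libraries against 55.1 and 62.9% in controls. The same held at 25 h, with 67.3 and 67.5% against 59.4 and 62.5%. At 15 h the shares of other regions overlapped, 62.8 and 69.3% against 61.9 and 68.8%.

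Over the 3 times regenerating libraries had a mean of 71.4% ± 8.88 and controls one of 23.4% ± 11.1 (SD, n = 6 each), a difference of 47.9 percentage points, with all 6 regenerating libraries above the controls of their time. The exact permutation test over all orders of libraries within times gave a two-sided p of 0.00926, the smallest it can give, and 0.00926 after Benjamini-Hochberg adjustment over the 2 fragment classes. In every order the regions were kept as chosen with the true labels, and the 56 gained at all 3 times enter at each left-out time. The 3 times are thus linked, and the p-values of both fragment classes take no account of this. All other regions differed by 5.04 points in the same direction. L3 libraries had a peak in 15.9 to 39.3% of the same regions. Without regions that hold a repeated 32-base word or an annotated element, a choice added after the data were seen, the difference was 42.2 points (exact permutation p = 0.00926).

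Mononucleosome peaks, which the rule did not use, followed the same direction at the left-out times. They were found at 27.3 and 37.1% of the regions in regenerating and 18.2 and 14.4% in control libraries at 0 h. At 15 h the shares were 34.6 and 28.0% against 20.4 and 18.5%, and at 25 h 28.3 and 34.1% against 17.4 and 14.5%. The means were 31.5% ± 4.21 and 17.2% ± 2.36 (SD, n = 6 each), 14.3 points apart, again without overlap at any time (exact permutation test, two-sided p = 0.00926 and adjusted p = 0.00926). In all other regions the difference was −0.384 points, and L3 libraries had 18.1 to 24.6%. Both classes came from the same libraries. The difference was 8.77 points without regenerating replicate 1 of 15 h, and 9.72 points in regions of unique sequence alone, where p remained 0.00926 in the exact permutation test.

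**Figure D2:**
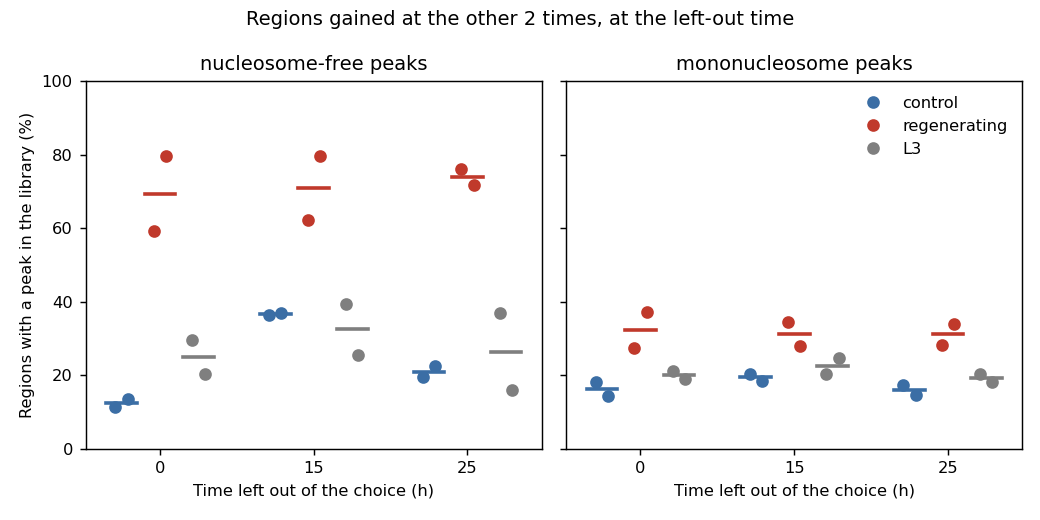
The vertical axis is the percent of regions gained at the other 2 times that had a peak in each library of the left-out time (0, 15 or 25 h); points are libraries and bars the mean of 2. Regenerating libraries lie between 59.1 and 79.6% for nucleosome-free peaks and controls between 11.4 and 37.0%, while mononucleosome shares lie between 27.3 and 37.1% and between 14.4 and 20.4%.

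At the times that chose the regions, mononucleosome peaks are given as a description, since they come from the contrast of the rule. Of the regions gained at 0 h, 25 of 293 (8.53%) showed the same pattern in mononucleosome peaks, both regenerating libraries and no control, where the share among all regions was 0.954%. At 15 h this held for 17 of 214 (7.94%, all regions 1.84%) and at 25 h for 21 of 287 (7.32%, all regions 1.37%). The reverse was found in 2, 1 and 2 regions. No mononucleosome peak in any of the 4 libraries was found for 159, 123 and 160 regions, the most common state at each time. In all 14 libraries together, 212 regions (57.5%) had such a peak at least once against 70.6% of all regions, and 20 (5.42%) had it in every library against 30.6%. For 24 regions (6.50%, all regions 0.400%) the pattern of both regenerating and no control library occurred at 2 or 3 times.

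The clearest of these lies between genes on 3R, 1655 bp from the start of tHMG2, which encodes a high mobility group protein of the testis (22494814 to 22495328). It had no nucleosome-free peak in the 8 undamaged libraries, and pile-ups of 30 and 38 fragments at 0 h, 30 and 25 at 15 h, then 22 and 32 at 25 h. Its mononucleosome peaks were in exactly the 6 regenerating libraries. On 2L, an intronic region of rdo (18045883 to 18046425) had pile-ups of 25 and 40, 22 and 34, and 32 and 40 fragments at the 3 times and none in undamaged libraries. There the mononucleosome peak was in the 6 regenerating libraries and in 1 control of 0 h. Npc1b encodes a protein that takes up dietary sterol in the gut, and 12027 bp from its start a region on X (20946896 to 20947101) had 23 and 38, 28 and 31, and 36 and 27 fragments, with 18 in L3 replicate 2 and no control peak. A region over a 5′ UTR of Drl-2, a Wnt receptor of the Ryk family (2R, 13072847 to 13073172), also had mononucleosome peaks in exactly the 6 regenerating libraries, but 69.8% of its 32-base words are repeated, so its fragments may come from other copies. It was gained at 0 and 25 h, with 14 fragments in 1 control of 15 h and 18 in L3 replicate 1.

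A nucleosome-free peak in every one of the 6 regenerating libraries and no undamaged one was found for 39 regions. On 2R, a region at the start of speck, which encodes an arylalkylamine N-acetyltransferase (24146793 to 24147107), had 28 and 59 fragments at 0 h, 42 and 52 at 15 h, then 34 and 45 at 25 h. A smaller neighbour in an intron of speck (24146525 to 24146636) was gained at 0 and 15 h with 14 and 24, and 16 and 24 fragments, and had no peak at 25 h. Replicate 2 was higher than replicate 1 at each time in both. The region 1184 bp from HGTX, a homeobox factor of the Nkx6 type known from motor neurons, had 28 and 55, 30 and 35, and 40 and 42 fragments and no mononucleosome peak in any library (3L, 14600724 to 14600879). Ptp99A is a receptor tyrosine phosphatase of axon guidance, and its intronic region on 3R (29441222 to 29441468) had 20 and 28, 40 and 46, and 30 and 42 fragments, with its lowest pile-ups at 0 h. The strongest of this class by pile-up overlapped the 3′ UTR of Ubqn, which encodes a ubiquitin shuttle of the proteasome (X, 19687365 to 19687541), with 44 and 80, 34 and 45, and 44 and 44 fragments.

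Another region in the same span of 3069 bp overlaps the 3′ UTR of the Hippo pathway gene Mer (X, 19690086 to 19690433) and had 65 and 103 fragments in the regenerating libraries of 0 h. It was gained only at 15 h (40 and 56 fragments) and 25 h (55 and 62), because both 0 h controls had a peak with 8 and 18 fragments, as had L3 with 19 and 21. Its regenerating pile-ups lay above each undamaged one.

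Other regions of the 39 lay in or near genes of varied function. A region over coding sequence and a transcription start of Sh, the Shaker potassium channel (X, 18012150 to 18012448), had 21 and 40, 22 and 19, and 28 and 29 fragments. One that overlaps coding sequence of CG9970 inside Shab, another potassium channel gene (3L, 2915845 to 2916200), had 15 and 32, 41 and 30, and 37 and 22 fragments. Near BBS4, a part of the ciliary BBSome (2R, 11134464 to 11134611), the values were 19 and 27, 30 and 30, and 29 and 35 fragments. In ana, a secreted glial protein that holds back neuroblast division (2R, 9075900 to 9076126), they were 24 and 33, 27 and 30, and 19 and 41. All values of these 4 regions lay between 15 and 41 fragments, and apart from Shab in replicate 1 of 15 and 25 h they lay below the median of all peaks of their library. At Flad1, the FAD synthase (X, 12903241 to 12903349), the nucleosome-free peak had 25 and 28, 21 and 27, and 30 and 37 fragments in regenerating libraries alone, while mononucleosome peaks were present in all 14. A region 3255 bp from eya, a transcription cofactor of eye development (2L, 6527057 to 6527254), had 20 and 24, 15 and 22, and 30 and 30 fragments and no mononucleosome peak. Of the 39 regions 26 held no repeated 32-base word.

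**Figure D3:**
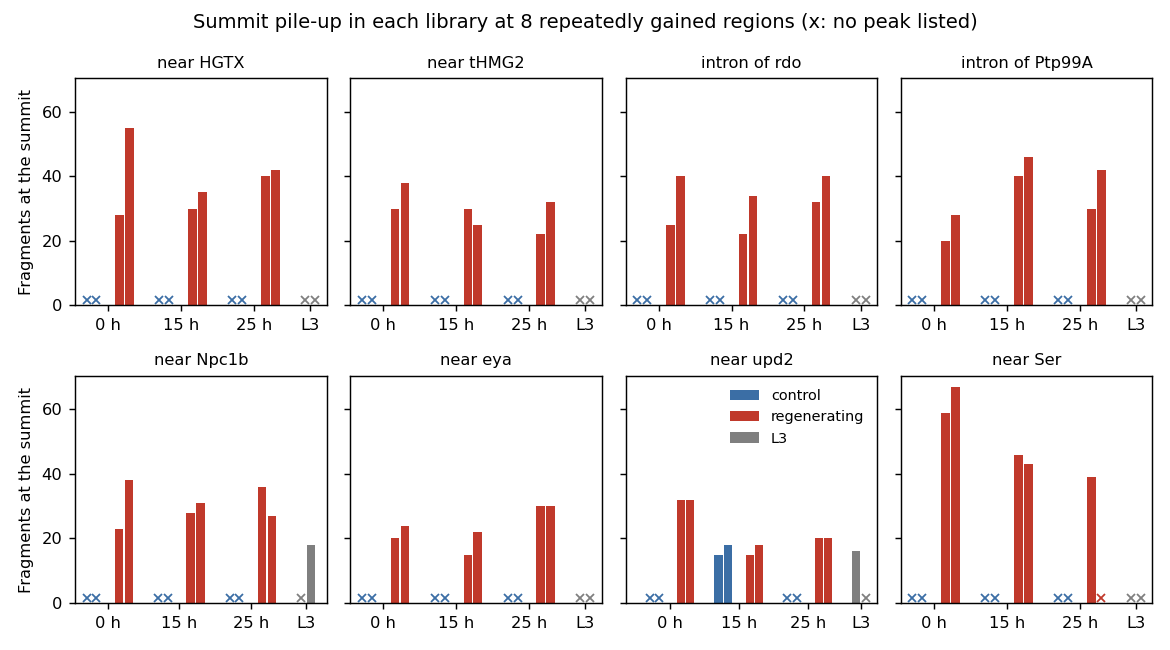
Bars give the fragments at the nucleosome-free summit in each library for 8 regions named in the text, in pairs of replicates for control, regenerating and L3 discs, and crosses mark libraries with no peak listed. The region near HGTX reaches 55 fragments and the one near Ser 67, while the one near upd2 also has peaks of 15 and 18 fragments in the 15 h controls.

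Repeated sequence was frequent among the strongest regions. The region of highest rank at all 3 times, at the tip of X (39297 to 40320), consisted of 32-base words found elsewhere in the genome, and had 60 and 64, 31 and 52, and 36 and 67 fragments in regenerating and 20 in 1 L3 library. Further along X, a region over an exon of lncRNA:CR40469 (122560 to 122709, 64.7% repeated words) had 26 and 54, 25 and 41, and 36 and 64 fragments and no undamaged peak. In pericentromeric 3L (26161192 to 26161370, 78.4% repeated words) the values were 38 and 50, 26 and 28, and 34 and 37. An invader1 element on X (22560165 to 22560467) had 25 and 48, 33 and 39, and 25 and 36 fragments. The fragments in such regions may come from any copy of the repeat.

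More than 50% of the 32-base words were repeated in 61 of the 369 regions (16.5%), in 30.4% of those gained at all 3 times, in 4.85% of those gained at 1 time and in 3.99% of all regions. Annotated transposable elements overlapped 35 (9.49%), against 2.56% of all regions. The 62 regions lost at 2 or 3 times had the higher shares, 32.3% with repeated words and 25.8% in elements, so repeats were frequent in both directions. Springer elements held 8 of the regions (of 32 regions in springer in all), 3S18 elements 7 (of 33) and 1360 elements 6 (of 146). The springer regions fell in 5 copies of 7510 to 7543 bp and those of 3S18 in 5 copies of 6127 to 6130 bp. In springer copies, the region near lncRNA:CR45337 had 22 and 26, 31 and 42, and 36 and 30 fragments with no undamaged peak, and mononucleosome peaks in both regenerating libraries of 15 and 25 h alone. The one in rg had 14 and 17, 31 and 28, and 19 and 22 fragments, also with no undamaged peak. The region in l(1)G0289 with the identical stretch had 28 and 39 at 0 h, 38 and 44 at 15 h, then 39 and 40 at 25 h, but also 12 and 22 in the 15 h controls and 23 in 1 L3 library.

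Some regions lay side by side. Within 10 kb of each other, 59 regions formed 26 runs. The longest, between genes on 3L and 36876 bp or more from RpL15, held 5 of the 6 regions between 27225174 and 27230379. A run 3478 bp or more from isoQC (3L, 20478440 to 20480285) lies in 1 springer copy and held all 3 regions of that span, as did a run in lncRNA:CR46482 (3L, 27826011 to 27827780). These 3 runs share sequence: 7 groups of regions, with 18 members, had a 32-base word in common, among them a group of 3 with 1 region from each of the 3 runs. In that group the regenerating pile-ups were 26 to 40 fragments near RpL15, 28 to 42 near isoQC and 33 to 38 in lncRNA:CR46482, and each also had peaks of 15 to 21 fragments in 1 or 2 undamaged libraries.

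Another pair of runs is on X. In CG32816 a run of 3 of 4 regions (428266 to 435377) spans a 3S18 copy. Its middle region (434266 to 434366) had 35 and 27, 23 and 28, and 26 and 30 fragments and no undamaged nucleosome-free peak. Mononucleosome peaks were there in 11 of the 14 libraries, among them 3 controls and both L3. All of its 32-base words are repeated, so its fragments may come from other copies. In CG42346 beside fog, the ligand that drives cell constriction in gastrulation, a run of 3 of 4 regions (22856890 to 22862933) lay mostly on unique sequence. Its first region had 24 and 29, 24 and 28, and 27 and 27 fragments, with no undamaged peak and no mononucleosome peak. The other members of that run were weaker, with 11 to 24 fragments in regenerating libraries.

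By position, the regions were mostly distal. Introns held 144 (39.0%), stretches between genes 121 (32.8%), coding exons 48, 5′ UTRs 43, non-coding exons 8 and 3′ UTRs 5. Promoters, within 200 bp of a transcription start, held 62 (16.8%), against 21.4% of regions gained at 1 time and 29.2% of all regions, and 12.5% of those gained at all 3 times. The median distance to the nearest start was 2228 bp against 1251 bp for all regions. Regions open in all 14 libraries lay within 1 kb of 92 (24.9%), while this held for 34.5% of all regions that were not themselves in all 14. Chromosome arms held 53 (2L), 75 (2R), 84 (3L), 79 (3R), 77 (X) and 1 (chromosome 4), or 0.886, 1.24, 1.20, 1.04, 1.23 and 0.251% of their regions. Width (median 180 bp) and GC content (median 49.3%) were close to those of all regions (188 bp and 48.4%).

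Peaks of L3 discs were merged into the regions but had no part in the calls of gain. In L3, 181 regions (49.1%) had a peak in at least 1 library and 57 (15.4%) in both, against 74.4 and 58.6% of all regions. For regions gained at 1 time the shares were 64.4 and 29.1%, and for those gained at all 3 times 30.4 and 3.57% (17 and 2 regions). The rule excludes most regions open in every disc, which lowers these shares, so they are given as a description. No peak in any of the 6 controls was found for 181 regions, of which 123 also had none in L3 and 14 had one in both L3 libraries. A region in an intron of RYa-R, the RYamide receptor (3R, 27038975 to 27039157), shows the last pattern, with 24 and 24, 27 and 32, and 28 and 23 fragments in regenerating and 26 and 16 in L3 libraries. Regions present in both L3 but in no control library are thus open in 1 kind of undamaged disc and not listed in the other.

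**Figure D4:**
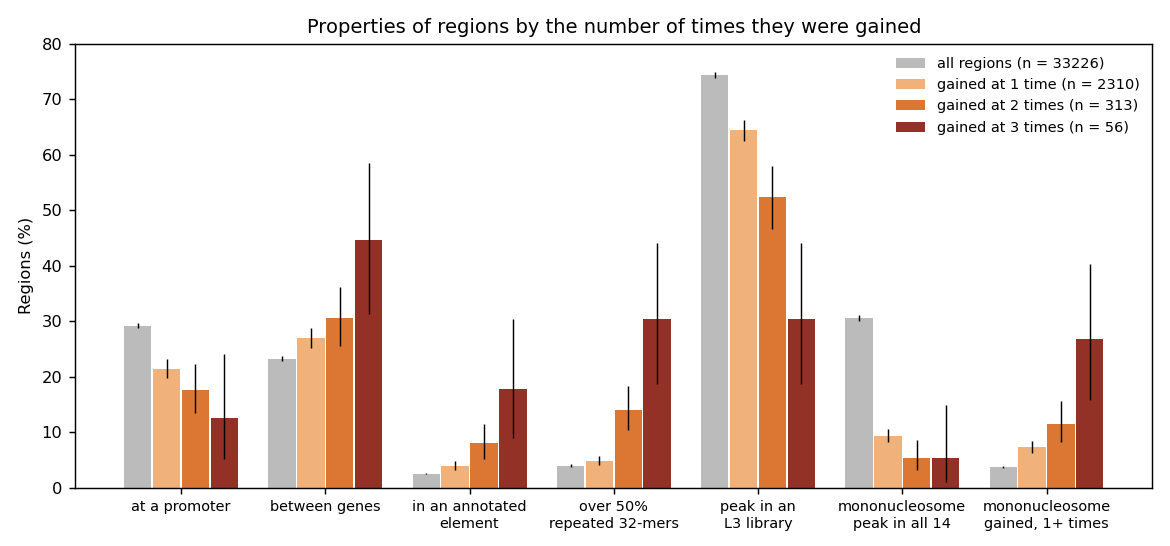
Bars give the percent of regions with each property, for all 33226 regions and for those gained at 1, 2 or 3 times, with exact (Clopper-Pearson) 95% binomial intervals that cover counting error only. Promoter and L3 shares are lower at more times, 29.2 to 12.5% and 74.4 to 30.4%, and shares of repeated words are higher, 3.99 to 30.4%.

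Genes were also read in 21 lists, of pathways known for disc regeneration and of others, such as cell cycle genes and markers of cell types. Of the 210 listed genes with any region, 9 were nearest to 1 (4.29%), compared with 338 of all 10762 genes with a region (3.14%). This count takes no account of the number of regions per gene, which was higher in the lists. For example, the 23 wing patterning genes with a region had 274 regions, while all 10762 genes had 33226. Counted by regions, beside 1.11% of all regions, the damage response list held 2 of 96 (2.08%) and the JAK/STAT list 1 of 40 (2.50%). The cell cycle list held 1 of 58 (1.72%), the myoblast list 1 of 66 (1.52%) and the Notch list 1 of 68 (1.47%). In the homeobox list it was 1 of 93 (1.08%), in the ecdysone list 1 of 233 (0.429%) and in the wing patterning list 1 of 274 (0.365%). The lists of JNK, Wnt, Dpp, Hippo, EGFR, apoptosis, innate immunity and stress genes, of 25 to 149 regions each, held 0. Of the cell type lists, wing epithelium (131 regions), trachea (41), hemocytes (26) and neurons (5) held 0 too. A region counted only for the gene with the nearest transcription start, so a region inside a gene can count for another. The repeatedly gained regions over the 3′ UTR of Mer and in an intron of dally thus counted for CG14227 and CG43169. For any 1 list of this size 0 is near the background. These lists were put together because each held 0, so their joint share cannot be set against the background, and no list was tested. Near upd2, a secreted ligand of the JAK/STAT pathway, a region (X, 18239407 to 18239581) had 32 and 32 fragments at 0 h and 20 and 20 at 25 h in regenerating libraries. At 15 h it had 15 and 18 in control and the same 15 and 18 in regenerating libraries, and 16 in 1 L3 library. Near Ser, a ligand of Notch, a region 3187 bp away (3R, 27197454 to 27197609) had 59 and 67 fragments at 0 h, 46 and 43 at 15 h and 39 in 1 regenerating library of 25 h, with no undamaged peak. Its rank by fold was low, which for a given pile-up means a high local background, and scaled to the depth of the controls it passed at 0 h alone, so that it was no longer a repeated gain.

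Near Timp, an inhibitor of matrix proteases, a region in a coding exon of Syn (3R, 10215026 to 10215331) had 17 and 19 fragments at 15 h, 20 and 24 at 25 h and 11 in 1 regenerating library of 0 h. In Mmp2, a matrix protease, an intronic region (2R, 9680613 to 9680933) had 22 and 22 at 0 h and 17 and 28 at 25 h, but 25 in 1 control of 15 h and 21 and 15 in L3. A region 8609 bp from ptc, the Hedgehog receptor (2R, 8640901 to 8641040), had 30 and 37 at 0 h, 30 and 25 at 15 h, and a peak of 22 fragments in a control of 25 h. The remaining ones belonged to Eip93F, an ecdysone-induced factor, fzr, an activator of the anaphase-promoting complex, and Mef2, a muscle transcription factor, with 12 to 26 fragments in their regenerating peaks. Scaled to the depth of the controls, the fzr region passed at 15 h alone and the Mef2 region at 0 h alone, so that neither was then a repeated gain. The Mef2 region was open in both L3 libraries and in both 25 h controls.

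Of the regions gained at just 2 times, the highest-ranking were again often repeats. For 0 and 25 h they were led by an intron of l(3)80Fg (3L, 25971148 to 25971370), with 54 and 62, 35 and 42, and 50 and 67 fragments in regenerating libraries and 13 in a 15 h control. A blood element in CG43163 (3L, 8505446 to 8505579) had the highest values, 66 and 92, 68 and 60, and 61 and 53, against 18 and 35 in the 15 h controls. For 0 and 15 h a region on unique sequence 190 bp from Dpm3, a subunit of dolichol-phosphate mannose synthase (3R, 13403241 to 13403394), had 74 and 78, 33 and 68, and 43 and 84 fragments, with 34 in a 25 h control. For 15 and 25 h, the 5′ UTR of indra (3L, 1342138 to 1342232) had 24 and 33, and 38 and 44 fragments, and at 0 h 38 in a control against 30 and 54. In these 4 regions both regenerating libraries had a peak at the other time too, and a control peak kept the time from counting.

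Motifs were counted within 100 bases to either side of the strongest summit, and their shares are given beside those of all regions, with no test. TGANTCA, the site of AP-1, which acts downstream of JNK, was in 16 (4.34%) against 4.47% of all regions, and TTCNNNGAA, the Stat92E site, in 14 (3.79%) against 4.23%. GAGAGAG was in 33 (8.94%) against 8.60%, and in 8 of the 56 regions gained at all 3 times (14.3%). It was also in 8 of the 62 regions lost at 2 or 3 times (12.9%), but in 6.28% of those gained at 1 time. Both higher shares rest on 8 regions each. AACNNGTT, the site of Grainyhead, an epithelial factor, was in 27 (7.32%) against 12.9% of all regions and 11.0% of those gained at 1 time. CAGCTG, an E-box, was in 36 (9.76%) against 13.6%, and a run of 8 A in 19 (5.15%) against 8.09%. TATAAA was in 47 (12.7%) against 12.9%, and CACACACA in 27 (7.32%) against 9.16%. Both strands were searched, and none of these motifs contains another. A match is a description and not a binding site.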

How the data were processed

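ATAC-seq was done on 10 discs per condition, per the labels. The authors deposited 1 nucleosome-free and 1 mononucleosome peak list per library, each peak with a fold ratio over background, −log10 p, −log10 q and a score. STAR 2.4.0j, MACS2 and dm6 are named in the submitters' processing notes. For fragment limits, peak threshold and transposase offset, the sources used here give nothing. Deposited fold ratios and −log10 values were used within a list, to rank regions and to solve the fragments at a summit under the Poisson model of the caller (tolerance 0.001 on the log10 scale). Deposited scores were not used.

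Overlapping or touching peaks were merged with pandas 2.3.3 and numpy 2.4.6 under Python 3.11.15, tested with scipy 1.17.1 and plotted with matplotlib 3.10.9. Annotation was BDGP 6.54 of Ensembl 115, with 17206 genes (transcription starts of all their transcripts) and 5809 elements. A region took its class by any overlap, in the order coding exon, 5′ UTR, 3′ UTR, non-coding exon, intron. Of 227 listed symbols 222 matched. Rank was the lowest percentile of the fold over the regenerating lists at the gained times. Named were the 20 of best rank among those gained at 3 times, 5 per pair of times, up to 15 in all 6 regenerating and no undamaged library, those of listed genes, the 5 largest runs and up to 10 with repeated mononucleosome gain. The text gives a part of these. The regions and lists were chosen with earlier results of these data known. The test of left-out times was tried on simulated data without depth differences between libraries, so its behaviour under such differences was not tested. Alternatives were a stricter q, equal list lengths, other merging and overlap, depth scaling, left-out libraries and a replicate block.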

Additional observations from a re-analysis of the deposited data

How the results depend on the processing

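The difference at left-out times kept its direction and its side of the 0.05 threshold in each alternative run: 52.6 and 47.4 points for nucleosome-free peaks with equal list lengths and with −log10 q of at least 5, and 18.9 and 17.2 points for mononucleosome peaks. Leaving out 1 library at a time gave 38.1 to 46.8 and 8.77 to 14.4 points (exact permutation p 0.00926 to 0.0185), and 436 to 575 regions, 60 to 80 of them at all 3 times, since 1 library then decides its group. The number of regions moved to 202 with equal list lengths and to 47 (10 at all 3 times) with the lower Poisson limit of depth-scaled summits. On unique sequence alone 284 regions were left, 35 of them at all 3 times. Of the values with no test, the share with an L3 peak was 57.8% at the stricter q, and the promoter share 23.8% with equal lengths and 25.5% within 500 bp of a start. The other 77 values recomputed kept their direction and side of the threshold where tested, stayed within 1.5 times for counts, and otherwise lay within the 95% binomial interval of the value given. With a replicate block the differences of 47.9 and 14.3 points had an exact permutation p of 0.0313 each, the smallest that 64 orders allow. By correlation, same-numbered libraries of a time did not deviate together (−0.0153, 0.0395 and −0.00240). In depth they did: replicate 2 had the higher genome background in each control and regenerating group. At 0 h the backgrounds were 1.618 and 2.827 fragments in controls and 2.864 and 3.1 in regenerating libraries. In L3 replicate 1 was higher (3.206 and 2.734). Whether the numbers pair the samples therefore cannot be told. Depth is known only from the peaks, and a fragment count below a list's threshold is not seen.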

Other observations

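Several repeatedly gained regions outside the lists lie at genes of interest, and were picked out after their values were seen. At the start of w, which encodes an eye pigment transporter and in shortened form is the usual marker carried on Drosophila transgenes, a region overlapping the 5′ UTR (X, 2796351 to 2796588) had 16 and 19 fragments in the regenerating libraries of 15 h, 18 and 18 at 25 h and 13 in 1 of 0 h. No undamaged library had a peak there. The labels name no allele or driver, and whether a transgene copy added fragments here was not tested. A region 1570 bp from Hsp70Bbb, a heat-shock gene, in a Dm88 element (3R, 12500820 to 12500940), had 21 and 46 at 0 h, 30 and 43 at 15 h and 36 in 1 regenerating library of 25 h, and no undamaged peak. In grh, which encodes Grainyhead, a region in an annotated roo element (2R, 17820197 to 17820332) had 24 and 34 at 15 h and 27 and 37 at 25 h and none elsewhere, while mononucleosome peaks were present in 13 of the 14 libraries.

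In 2 further regions, also picked after their values were seen, L3 libraries had peaks. Near Gsc, a homeobox gene (2L, 595209 to 595309), the regenerating libraries had 22 and 43, 27 and 28, and 25 and 27 fragments and 1 L3 library had 26, with mononucleosome peaks in all 14 libraries. In an intron of Optix (2R, 8037886 to 8038088) the values were 23 and 24 at 15 h, 20 and 22 at 25 h, and 22 and 23 in L3, with no peak in any library of 0 h. At 15 and 25 h the Optix region was thus as strong in L3 as in regenerating discs.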
